A study of Homo sapiens with 6 samples.

Results

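The anaphase-promoting complex, also called the cyclosome (APC/C), and its regulators were examined through 10 genes, all of which were found by symbol among the 63129 genes listed in the expression table. The 10 members were the coactivators CDC20 and FZR1, the inhibitor FBXO5, the ubiquitin-conjugating enzymes UBE2C and UBE2S, and the core subunits ANAPC1, ANAPC10, CDC16, CDC23 and CDC27. Gene expression had been measured by polyA RNA-seq in ERRAS cells, IMR90 human lung fibroblasts carrying a retroviral, tamoxifen-inducible RasV12 fused to the estrogen receptor (ER:RAS). The 3 uninduced libraries came from cells without tamoxifen, and the 3 induced libraries from cells given 100 nM tamoxifen for 4 days per the labels, whereas the study's methods name 4-hydroxytamoxifen and give the dose by mass. Cells of both groups carried the construct and were arrested in mitosis with 1 µM DME (dimethylenastron), an inhibitor of the spindle motor Eg5, and unattached cells with a mitotic index over 90% were collected. The comparison asks whether active Ras alters the transcripts of the APC/C machinery in cell populations largely held before anaphase.

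The APC/C is a large ubiquitin ligase that marks cyclins, securin and other mitotic proteins for destruction, and so sets the time of anaphase and of mitotic exit. CDC20 activates it in mitosis and FZR1, also known as CDH1, in late mitosis and G1. While chromosomes remain unattached to the spindle, as in cells arrested by an Eg5 inhibitor, the spindle assembly checkpoint holds CDC20 in an inhibitory complex, so the control of the ligase in such cells lies largely at the protein level, which was not measured here.

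None of the 9 tested members passed the test, and their log2 fold changes ran from -0.28 for CDC23 to 0.37 for ANAPC10. Of the 9 members with a mean of at least 1 FPKM (fragments per kilobase of transcript, scaled to the mapped fragments of the library) 0 were called at an adjusted p at or under 0.05 by limma, with Benjamini-Hochberg adjustment over 13993 genes, and 1, ANAPC10, had an unadjusted p under 0.05. Among all tested genes 16.7% were called, 11% as higher and 5.67% as lower in induced cells. These 1543 higher and 793 lower calls became 1044 and 1109 with quantile normalization and 921 and 1101 with upper-quartile scaling. The groups did not overlap in 2 of the 9 tested members, CDC20 and CDC16, against 39.9% of all tested genes. The median log2 fold change of the tested members was 0.01, beside 0.10 over all tested genes, and with quantile normalization these became -0.10 and 0.01. Of 9 other APC/C subunits 2, ANAPC13 and CDC26, rose, a share near that of all tested genes, and of 21 APC/C substrates 10 fell.

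HRAS, the gene the construct carries, stood at 1174, 1176 and 1140 FPKM in the uninduced libraries and at 1439, 1847 and 1473 in the induced ones. Its log2 fold change was 0.44 (SE 0.11, adjusted p = 0.0431 by limma), and it was called in 4 of 13 alternative settings, with an adjusted p of up to 0.166. The induced libraries were all higher, although this value does not separate the construct from the cells' own gene and shows nothing of Ras activity. All 7 fibroblast markers were detected, with a summed level of 5353 to 6263 FPKM in uninduced and 3934 to 5285 in induced libraries. Within this list THY1 and COL1A2 fell (log2 fold changes -1.19 and -1.30, adjusted p = 0.0028 and 0.0101 by limma), COL1A1 and COL3A1 had -1.43 and -1.25 without passing (0.0501 and 0.0553), and VIM, FN1 and PDGFRB lay between -0.04 and 0.06. Endothelial and leukocyte markers summed to at most 0.374 FPKM in any library, with PECAM1 and CD3E at 0, while the 4 epithelial markers summed to 16.97 to 32.8 FPKM in uninduced and 19.6 to 21.2 in induced libraries, nearly all of it KRT5 and KRT14. The 6 G2/M genes chosen as mitotic markers summed to 1228 to 1322 FPKM in uninduced and 1005 to 1102 in induced libraries. In bulk RNA of this kind, fewer cells of a type and less RNA per cell cannot be told apart. Read counts were not available. Relative depth was estimated from the most frequent gene-by-gene ratio of low FPKM values between uninduced library 1 and each library. It lay at 0.844 to 1.17 times that of uninduced library 1, with induced library 2 the shallowest by this estimate.

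Promoter sequence is given first for the coactivators and the inhibitor, since CDC20 and FZR1 stood furthest apart in level among genes of one role and FBXO5 was the lowest member. The letters searched on both strands were TTTGAA (the cell cycle genes homology region, CHR, a site of cell cycle repression), CCAAT (the CCAAT box) and 4 forms of the E2F site. The first form of the E2F site was TTGGCGC, the second of these forms was TTCCCGC, the third of them was TTGCCGC, and the last of these forms was TTCGCGC. Each run is the 250 bases before a RefSeq transcription start in GRCh38.p14, 5′ to 3′ on the strand of the gene, and capitals mark a CHR or CCAAT match on either strand. The windows lie at chr1:43358731-43358980 (plus strand) for CDC20, chr19:3506061-3506310 (plus strand, the first of 2 windows) for FZR1, and chr6:152983042-152983291 (minus strand, the second of 2 windows) for FBXO5.
CDC20: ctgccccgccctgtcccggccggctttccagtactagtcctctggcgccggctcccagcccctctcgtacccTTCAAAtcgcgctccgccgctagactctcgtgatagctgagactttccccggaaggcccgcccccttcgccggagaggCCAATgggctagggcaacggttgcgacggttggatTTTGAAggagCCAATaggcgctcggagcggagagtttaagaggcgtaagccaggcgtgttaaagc
FZR1: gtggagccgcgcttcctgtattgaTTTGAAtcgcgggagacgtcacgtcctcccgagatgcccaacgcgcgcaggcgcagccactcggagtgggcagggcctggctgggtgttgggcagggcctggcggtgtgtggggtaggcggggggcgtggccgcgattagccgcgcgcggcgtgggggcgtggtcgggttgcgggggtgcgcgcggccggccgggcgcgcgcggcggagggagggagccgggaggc
FBXO5: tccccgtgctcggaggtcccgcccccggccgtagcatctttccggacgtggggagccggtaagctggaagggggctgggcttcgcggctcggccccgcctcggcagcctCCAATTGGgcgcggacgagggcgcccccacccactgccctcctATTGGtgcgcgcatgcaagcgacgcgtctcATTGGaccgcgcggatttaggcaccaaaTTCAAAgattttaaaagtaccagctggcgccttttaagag
In CDC20, with positions counted from the start and negative before it, a forward CHR began at -65, between CCAAT boxes at -100 and -55, and a reverse CHR lay at -178. FBXO5 held, in the window shown, a reverse CHR at -40 and 4 CCAAT matches, of which those at -141 and -138 overlap. Its other window held no match. FZR1 held 1 CHR, at -226, and no CCAAT box in either window.

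A promoter window was found for 9 of the 10 members, 14 windows in all, each from 250 bases before to 50 bases after a start. For UBE2C none was at hand. A gene was counted if any of its windows held a match, so genes with several windows had more chances. A CHR was present in 5 of these 9 genes, or 55.6%, against 18.2% of the 27305 genes with a window, and a CCAAT box in 6 of 9, or 66.7%, against 39.7%. An E2F match was present in 4 of 9 genes, or 44.4%, against 15.3%, and the related lists were also above that share, at 38.9% of substrates, 33.3% of checkpoint genes, 33.3% of other modifiers and 22.2% of other subunits. CDC20 and FBXO5 were the 2 members with a CHR and a CCAAT box in the same window, a share of 22.2% against 7.26% of all genes. Counted by window, where genes with several starts weigh more, a CHR was present in 35.7% of member windows and 15.2% of all windows, an E2F match in 28.6% and 13%, and a CCAAT box in 42.9% and 34.6%, a smaller gap than by gene. The checkpoint genes held a CHR in 3 of 6 genes with a window, or 50%, and a CCAAT box in 33.3%. By gene, the other APC/C subunits, at 11.1% for the CHR and 33.3% for the CCAAT box, were below the shares of all genes in both. By window, their CCAAT share was 35.3%, against 34.6% of all windows. Of the 3 other modifiers with a window 0 held a CHR. Among the APC/C substrates, a CCAAT box was present in 15 of 18 genes with a window, or 83.3%, and a CHR in 5, or 27.8%. These matches are letters in a window and do not show that a factor binds there.

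CDC20, the coactivator that the checkpoint restrains, lies on chromosome 1 (GRCh37, 43824652 to 43828874, plus strand). It measured 365, 364 and 373 FPKM in uninduced and 294, 338 and 340 FPKM in induced libraries. Each induced library was below each uninduced one, although the gap was narrow for the higher 2 of the induced libraries. The induced mean was 88.2% of the uninduced mean, and the log2 fold change of -0.18 (SE 0.08, 95% confidence interval -0.38 to 0.01) had an adjusted p of 0.171 by limma. Over 13 alternative settings the adjusted p ranged from 0.0644 to 0.344. A decrease as large as 0.38 on the log2 scale is therefore within the interval, and an increase above 0.01 is not. The pseudogene CDC20P1, at 4.01 ± 0.51 FPKM (SD, n = 3) in uninduced and 3.14 ± 0.57 in induced libraries, shares 10.8% of its 50-base stretches with CDC20.

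FZR1, the coactivator of late mitosis and G1, lies on chromosome 19 (3506309 to 3538332, plus strand). Its level was 8.32, 8.45 and 7.75 FPKM in uninduced libraries and 7.61, 6.02 and 8.74 FPKM in induced ones. The lowest and the highest of the 6 values were both induced, so the groups overlapped. Its log2 fold change of -0.13 (SE 0.14, interval -0.46 to 0.20) had an adjusted p of 0.547 by limma, and was -0.002 without induced library 2 and -0.24 without induced library 3.

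The ratio of the coactivators within each library does not move when all values of the library are scaled by 1 factor. It was not computed after quantile normalization, which is not such a scaling. CDC20 stood 45.0-fold above FZR1 in uninduced and 43.8-fold in induced cells, as geometric means of 3 libraries. On the log2 scale the ratio was 5.46, 5.43 and 5.59 in uninduced and 5.27, 5.81 and 5.28 in induced libraries, which overlap. The difference of -0.04 had p = 1 in a two-sided exact permutation test, whose smallest possible p with 3 libraries against 3 is 0.1. This difference turned on single libraries: it was -0.21 without induced library 2, when the remaining induced ratios lay below all uninduced ones, and 0.06, 0.05 and 0.01 without induced library 1, induced library 3 or uninduced library 3.

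FBXO5, also known as EMI1, blocks the APC/C in S phase and G2 and is itself destroyed on entry into mitosis. The gene lies on chromosome 6 (153291654 to 153304714, minus strand). It was the lowest member, at 0.875, 0.738 and 0.762 FPKM in uninduced and 1.81, 0.647 and 0.788 FPKM in induced libraries. Induced library 1 stood alone above 1 FPKM, and the other 2 induced libraries lay among or below the uninduced ones. The uninduced mean was under 1 FPKM and so was the mean over the 6 libraries, so the gene entered no test in the fit as planned, and with no filter on level its adjusted p was 0.696 by limma.

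UBE2C, or UBCH10, places the first ubiquitin on APC/C substrates and lies on chromosome 20 (44441215 to 44445596, plus strand). It measured 14.5, 14.2 and 11.6 FPKM in uninduced and 14.6, 9.74 and 17.04 FPKM in induced libraries. The induced libraries spread on both sides of the uninduced ones. The log2 fold change was 0.01 as deposited and -0.10 under quantile and upper-quartile scaling, with SE 0.20, an interval of -0.48 to 0.49 and an adjusted p of 0.988 by limma as deposited.

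UBE2S, which extends ubiquitin chains on the substrate, lies on chromosome 19 (55911113 to 55919156, minus strand) and was the most abundant member. It measured 550, 570 and 474 FPKM in uninduced and 440, 594 and 462 FPKM in induced libraries. The highest and the lowest values were both from induced cells. Its log2 fold change of -0.10 (SE 0.14, interval -0.43 to 0.23) had an adjusted p of 0.645 by limma. The level is uncertain, because the pseudogenes UBE2SP1 (76.0 ± 4.1 FPKM uninduced, 69.9 ± 9.4 induced, SD, n = 3) and UBE2SP2 (43.0 ± 5.8 and 38.9 ± 4.8) share 54.4% and 55.8% of their 50-base stretches with UBE2S. How the counting divided reads between these copies was not given in the sources used here.

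UBE2S transcripts exceeded those of UBE2C 39.5-fold in uninduced and 36.8-fold in induced cells. The log2 ratio was 5.24, 5.33 and 5.35 in uninduced and 4.91, 5.93 and 4.76 in induced libraries. The uninduced libraries lay close together, whereas induced library 2 was above and the other 2 induced libraries below all of them. The difference of -0.10 had p = 1 by the exact permutation test, and its size and sign turned on single libraries, at -0.47 without induced library 2, 0.04 without induced library 1 and 0.12 without induced library 3. Induced library 2 held the lowest of the 6 values for FZR1, FBXO5, UBE2C and CDC23 and the highest for UBE2S, ANAPC10 and CDC16. It was also the shallowest library by the estimate from low FPKM values, and the part of depth in these values was not tested.

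**Figure D1:**
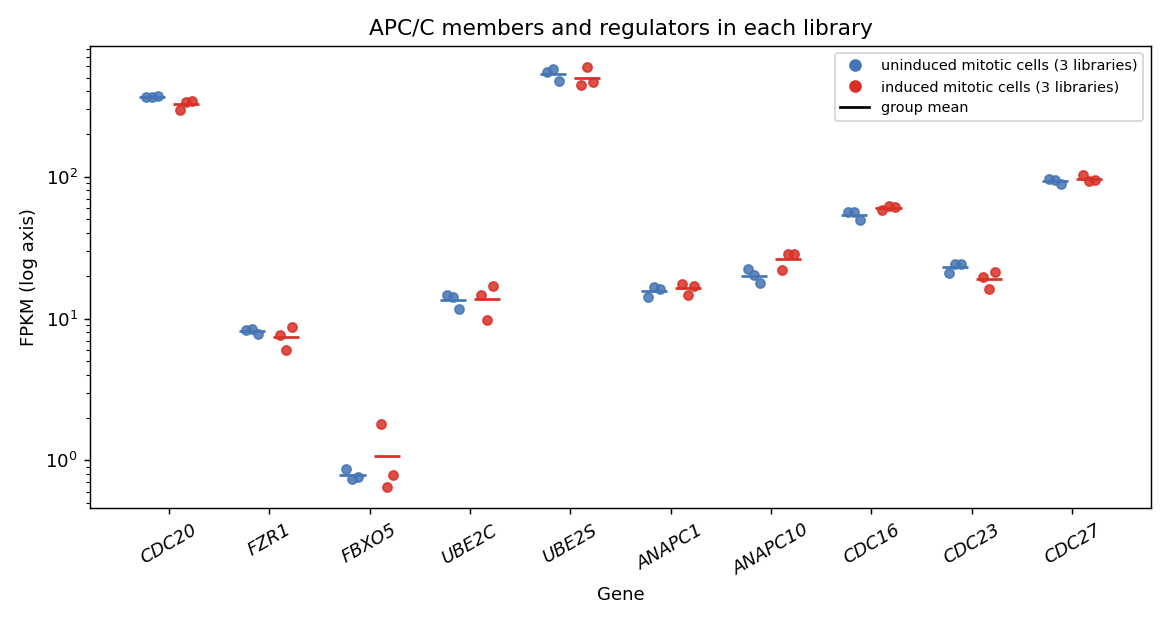
Levels of the 10 members in each library, in FPKM on a log axis, with uninduced libraries in blue, induced libraries in red and a bar at each group mean. UBE2S and CDC20 stand highest and FBXO5 lowest in both groups, and the groups separate for CDC20 and CDC16 alone.

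The core subunits of the complex were at intermediate levels. ANAPC1, the large scaffold subunit on chromosome 2 (112369216 to 112642267, minus strand), measured 14.3, 16.8 and 16.1 FPKM in uninduced and 17.5, 14.7 and 16.9 FPKM in induced libraries. The groups overlapped over nearly their whole range. Its log2 fold change was 0.05 as deposited and -0.05 under quantile and upper-quartile scaling (SE 0.10, interval -0.20 to 0.30, adjusted p = 0.755 by limma as deposited). Its 5 pseudogene entries reached 14.2 ± 0.76 FPKM in uninduced and 12.4 ± 0.87 in induced libraries (SD, n = 3) for ANAPC1P4, which shares 67.1% of its 50-base stretches with ANAPC1, and ANAPC1P2, at 7.78 ± 0.26 and 7.27 ± 0.37 FPKM, shares 80.5%. Against the ANAPC1 level of 15.7 FPKM these entries are large, so the ANAPC1 value is uncertain as well.

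ANAPC10, or DOC1, helps the coactivators to bind substrates, and its gene lies on chromosome 4 (145753060 to 146019693, minus strand). The gene measured 22.2, 20.2 and 17.9 FPKM in uninduced and 21.8, 28.6 and 28.4 FPKM in induced libraries. Induced libraries 2 and 3 were above all uninduced ones, while induced library 1 was just below uninduced library 1. The log2 fold change of 0.37 (SE 0.14, interval 0.04 to 0.69) was the highest among the tested members, with an adjusted p of 0.114 by limma, which ranged from 0.0631 to 0.279 over 13 alternative settings. Of its exonic bases, 1020, or 22.6%, are shared with ENSG00000285713, a protein-coding gene on the same strand that has no value among the genes read here. A further overlap of 132 bases, or 2.92%, is with ABCE1 on the opposite strand, at 68.7 FPKM on average. The library kit did not mark strand, so reads of the ABCE1 stretch cannot be assigned to one of them.

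CDC16, CDC23 and CDC27 are built of tetratricopeptide repeats and belong to the arm of the complex that holds the coactivators. CDC16, on chromosome 13 (115000362 to 115038198, plus strand), measured 56.4, 56.2 and 49.5 FPKM in uninduced and 58.3, 62.2 and 61.4 FPKM in induced libraries. All induced libraries were above all uninduced ones. The log2 fold change of 0.17 (SE 0.08, interval -0.03 to 0.36) had an adjusted p of 0.207 by limma and the log2 fold change was 0.07 under quantile normalization.

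CDC23, on chromosome 5 (137523339 to 137549032, minus strand), measured 21.0, 24.1 and 24.2 FPKM in uninduced and 19.5, 16.1 and 21.2 FPKM in induced libraries. Induced libraries 1 and 2 were below all uninduced ones, and induced library 3 was just above uninduced library 1. The log2 fold change of -0.28 (SE 0.12, interval -0.57 to 0.01) was the lowest among the tested members, with an adjusted p of 0.165 by limma and a range of 0.0851 to 0.332 over the alternatives. CDC23 shares 74 exonic bases, 1.6% of its own, with KIF20A on the opposite strand, at 142.8 FPKM on average.

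CDC27, to which the coactivators dock, lies on chromosome 17 (45195069 to 45266788, minus strand) and was the most abundant of the 5 core subunits among the members. It measured 95.9, 95.4 and 89.2 FPKM in uninduced and 102.0, 93.1 and 94.5 FPKM in induced libraries, so that the groups overlapped. The log2 fold change was 0.05 as deposited, -0.02 under quantile and -0.06 under upper-quartile scaling (SE 0.07, interval -0.13 to 0.22, adjusted p = 0.704 by limma as deposited).

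FPKM is scaled to transcript length, so the members can be ordered by level. In uninduced cells the order was UBE2S at 531.5 ± 50.8 FPKM (SD, n = 3), CDC20 at 367.3 ± 4.8, CDC27 at 93.5 ± 3.8, CDC16 at 54.0 ± 3.9, CDC23 at 23.1 ± 1.8, ANAPC10 at 20.1 ± 2.2, ANAPC1 at 15.7 ± 1.3, UBE2C at 13.5 ± 1.6, FZR1 at 8.17 ± 0.37 and FBXO5 at 0.792 ± 0.073. Neighbours whose libraries overlapped were CDC23 with ANAPC10 and ANAPC1 with UBE2C. In induced cells ANAPC10, at 26.3 ± 3.8 FPKM, stood above CDC23, at 19.0 ± 2.6, with no overlap, whereas CDC23 with ANAPC1 and ANAPC1 with UBE2C overlapped. Every other neighbouring pair kept its order in both groups, from UBE2S at 498.6 ± 83.3 FPKM and CDC20 at 323.9 ± 26.3 down to FZR1 at 7.46 ± 1.36 and FBXO5 at 1.08 ± 0.63. Among the 5 core subunits of the members, transcript levels in uninduced cells ran from 15.7 FPKM for ANAPC1 to 93.5 FPKM for CDC27, and with the other 9 subunits from 11.7 FPKM for ANAPC2 to 144.7 FPKM for ANAPC11, the RING subunit.

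Both coactivators were lower relative to the core subunits in induced cells. CDC20 stood 11.3-fold above the geometric mean of the 5 core subunits in uninduced and 9.45-fold in induced cells. Its log2 ratio was 3.49, 3.43 and 3.57 in uninduced and 3.12, 3.36 and 3.25 in induced libraries, with no overlap. The difference of -0.26 had p = 0.1 by the two-sided exact permutation test, the smallest this design allows, and 0.2 after adjustment over the 4 ratios examined, so neither could pass 0.05. The summed G2/M markers, of which CDC20 is not one, were also lower in each induced library (1005 to 1102 FPKM, against 1228 to 1322), and their part in this ratio was not tested.

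FZR1 stood at 0.251 of the same mean in uninduced and 0.216 in induced cells. The log2 ratio was -1.964, -1.997 and -2.021 in uninduced and -2.15, -2.45 and -2.04 in induced libraries. The groups did not overlap, but induced library 3 lay only just below the uninduced ones. The difference of -0.22 likewise had p = 0.1 by the exact permutation test and 0.2 adjusted, and was -0.10 without induced library 2.

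The other 9 subunits of the human complex were also measured, and 2 rose and 0 fell, where 11% of all tested genes were called higher and 5.67% lower. With 9 genes, a count of 2 is near this background. ANAPC13, a small subunit that stabilizes the complex, measured 18.5, 20.5 and 18.8 FPKM in uninduced and 27.6, 26.6 and 28.9 FPKM in induced libraries (log2 fold change 0.50, SE 0.08, adjusted p = 0.0106 by limma). CDC26, a small partner of CDC16, measured 27.0, 26.9 and 22.8 FPKM in uninduced and 35.4, 39.9 and 37.1 FPKM in induced libraries (0.54, SE 0.10, adjusted p = 0.0153). Both were higher in every induced library. ANAPC13 was called in each of 13 alternative settings and CDC26 in 12, with an adjusted p of 0.0558 for CDC26 without induced library 3.

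At the low end of the other subunits, ANAPC15, which aids turnover of the checkpoint complex, had a log2 fold change of -0.21 (adjusted p = 0.332) and the platform subunit ANAPC5 one of 0.04, or -0.04 under quantile normalization (adjusted p = 0.844 as deposited, limma). ANAPC2, the cullin subunit, named here after its values were seen, had a log2 fold change of 0.38 with an adjusted p of 0.0526 by limma, and was called in 2 of 13 alternative settings, with adjusted p from 0.0402 with genes under 5 FPKM left out to 0.155. The groups did not overlap in 4 of the 9, near the 39.9% of all tested genes, all 4 were higher in induced cells, and the median log2 fold change of the 9 was 0.20. Taking the 14 subunits of both lists, 12 had a fold change above 0, with a median of 0.16, beside 8771 of 13993 tested genes above 0. Under quantile normalization 8 of 14 were above 0, with a median of 0.08.

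**Figure D2:**
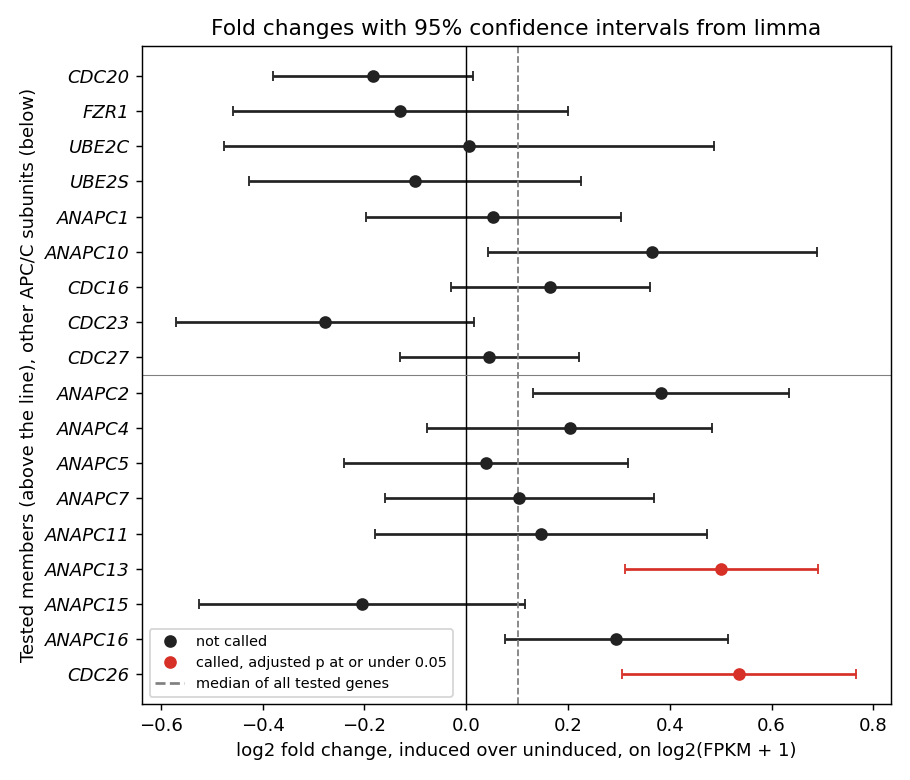
Log2 fold changes (induced over uninduced, on log2(FPKM + 1)) with 95% confidence intervals from limma for the 9 tested members above the line and 9 other APC/C subunits below it, with called genes in red and a dashed line at the median of all tested genes. ANAPC13 and CDC26 were called, and no member was. Under quantile and upper-quartile scaling UBE2C, ANAPC1, CDC27, ANAPC5 and ANAPC7 change sign.

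CDC20 is the target of the mitotic checkpoint complex, and of 8 genes that form, assemble or dissolve this complex 1 rose and 2 fell, where 11% of all tested genes were called higher and 5.67% lower. MAD2L1BP, or p31comet, which releases MAD2 from the complex and so acts towards CDC20, had a log2 fold change of 0.46 (21.9 ± 1.7 FPKM uninduced, 30.4 ± 1.0 induced, SD, n = 3, adjusted p = 0.0166 by limma). BUB1B, which encodes the CDC20-binding checkpoint protein BUBR1, had a log2 fold change of -0.35 (96.3 ± 3.7 and 75.5 ± 2.8 FPKM, adjusted p = 0.022). BUB1, a kinase that recruits checkpoint proteins to kinetochores, had one of -0.30 (98.7 ± 5.2 and 79.9 ± 3.7 FPKM, adjusted p = 0.0418), and was called in 5 of 13 alternative settings. These 3 calls became 0 without uninduced library 1, induced library 1 or induced library 3, 1 without uninduced library 2, and 2 without uninduced library 3 or induced library 2, with no filter, or with no mean-variance trend. MAD1L1, the partner of MAD2 at kinetochores, had the next highest fold change, 0.15, with an adjusted p of 0.396. The median over the 8 genes was -0.07.

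Among transcripts that encode APC/C substrates, 10 of 21 fell, beside 5.67% of all tested genes, 0 rose, and all 21 lay below the all-gene median. TK1, the thymidine kinase of nucleotide salvage, measured 169.5, 166.1 and 140.8 FPKM in uninduced and 64.3, 81.5 and 53.8 FPKM in induced libraries. The highest induced library was well below the lowest uninduced one, and the log2 fold change was -1.26 (SE 0.16, adjusted p = 0.00571 by limma). GMNN, or geminin, an inhibitor of replication licensing, measured 66.7, 70.2 and 65.1 FPKM in uninduced and 41.5, 51.4 and 39.1 FPKM in induced libraries, again without overlap (-0.61, SE 0.11, adjusted p = 0.0163).

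Among the spindle and cytokinesis substrates, log2 fold changes were -0.60 for the spindle protein HMMR (adjusted p = 0.0398), -0.58 for the microtubule-associated CKAP2 (0.00384), -0.48 for ANLN, which acts in the cytokinetic ring (0.0153), and -0.46 for TPX2, the activator of Aurora A (0.0163). Among those that drive the cell cycle, they were -0.56 for the phosphatase CDC25A (0.00885), -0.50 for cyclin A2, CCNA2 (0.0125), -0.33 for cyclin B2, CCNB2 (0.0371), and -0.27 for the kinase PLK1 (0.0475, limma). TK1, CKAP2 and CDC25A were called in each of the 13 alternative settings, CCNB2 in 7, HMMR in 6 and PLK1 in 3. The substrates whose destruction opens anaphase, named here after their values were seen, did not pass. CCNB1, cyclin B1, measured 526, 533 and 589 FPKM in uninduced and 440, 516 and 491 FPKM in induced libraries (-0.19, adjusted p = 0.196), and PTTG1, securin, measured 360, 349 and 345 against 267, 336 and 305 FPKM (-0.22, adjusted p = 0.168 by limma). Both were lower in each induced library.

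The highest fold changes of the substrate list were 0.01 for SGOL1, the protector of centromeric cohesion, and 0.01 for SKP2, a subunit of another ubiquitin ligase (adjusted p = 0.933 and 0.972 by limma). Of the 21 substrates 19 had a fold change below 0, 18 showed no overlap, beside 39.9% of all tested genes, and all 18 were lower, with a list median of -0.38. With quantile normalization 21 of 21 were below 0, 15 were called and the median was -0.44. Leaving out 1 library at a time left 3 to 11 calls, with 5 without uninduced library 1, 3 without uninduced library 2, and 4 without induced library 1 or induced library 3. The summed G2/M markers given above were lower in the same libraries, and include CCNB1, PLK1 and AURKA of this list. The part of this lower marker sum in the substrate values was not tested.

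Of 6 other modifiers 1 rose, a share like the 16.7% of all tested genes that were called. UBE2E1, an E2 enzyme that can act with the APC/C, measured 88.4, 80.4 and 77.1 FPKM in uninduced and 107.5, 107.2 and 128.3 FPKM in induced libraries (0.47, SE 0.10, adjusted p = 0.0254 by limma). The induced libraries were all higher, but UBE2E1 was called in only 7 of 13 alternative settings. Its adjusted p by limma was 0.0535 under upper-quartile scaling, 0.0565 with no filter and highest, at 0.0834, without uninduced library 2. UBE2D1, another E2 enzyme, had a log2 fold change of 0.44 (adjusted p = 0.0878), USP37, a deubiquitinase of cyclin A, one of -0.23 (0.371), and FBXO43, or EMI2, the meiotic relative of FBXO5, one of -0.02 (0.956, limma).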

How the data were processed

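RNA was from 6 libraries of mitotic IMR90 ER:RAS cells. The authors aligned paired-end reads to hg19 with Tophat2 and computed FPKM with Cufflinks, and deposited 1 table of FPKM (Trim Galore 0.3.0 is named in the submitters' processing notes). Column names give the group and a number but no sample. Another 18 unnamed columns were not used, nor were 120 genes with more than 6 values. A deposited Cuffdiff comparison, holding fold changes and p-values, was not used.

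FPKM is not a count, so limma 3.58.1 (R 4.3.3) was fitted to log2(FPKM + 1) of the 13993 genes that averaged 1 FPKM or more. The test was two-sided, used eBayes with trend, and called genes at a Benjamini-Hochberg adjusted p of 0.05 or less. Fold changes on this scale understate changes of low genes. The procedure was tested on simulated data. Ratios within libraries were tested by exact permutation. Gene positions and exon overlaps follow the GRCh37 (hg19) lift of GENCODE 44, not the Ensembl build that the study's methods name. Promoter windows are from RefSeq (GRCh38.p14). Python 3.11.15 with pandas 2.3.3, scipy 1.17.1 and matplotlib 3.10.9 made the other tables and figures. Alternatives were a pseudocount of 0.1, no filter, at least 5 FPKM, quantile and upper-quartile scaling, no trend, a block on the column number, and leaving out each library.

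The members and gene lists were chosen with earlier results of these data known. The text names the 10 members, HRAS, each called gene of the lists, and the 2 highest and 2 lowest fold changes of each list. The study states that the experiment was repeated independently, while the labels do not tie libraries to cultures, so p-values measure the spread between these libraries. Read depth is unknown, and no counting intervals were computed.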

Additional observations from a re-analysis of the deposited data

How the results depend on the processing

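No member was called by limma in any of the 13 alternative settings, of which FBXO5 entered only the 1 with no filter. The direction held for CDC20, FZR1 (at -0.002 without induced library 2), UBE2S, ANAPC10, CDC16 and CDC23 in every setting, and for UBE2S also when the FPKM of its 2 pseudogene entries was added, an alternative chosen after seeing the data. UBE2C moved to a log2 fold change of -0.10 under quantile and -0.10 under upper-quartile scaling, and to between -0.15 and 0.22 with 1 library left out. ANAPC1 moved to -0.051 under quantile and -0.051 under upper-quartile scaling and to between -0.011 and 0.12 with 1 library left out, and CDC27 to -0.020 under quantile and -0.064 under upper-quartile scaling. These scalings took the median of all genes from 0.10 to 0.01 and 0.005 and the split of calls from 1543 higher and 793 lower to 1044 and 1109 (quantile) and 921 and 1101 (upper-quartile). With no filter 1518 of 29362 genes were called in place of 2336 of 13993, and leaving out 1 library gave 998 to 1956. Leaving out 1 library gave 1 to 2 calls among the other subunits, 0 to 2 in the checkpoint list, 3 to 11 among the substrates and 0 to 2 among the other modifiers, whose single call became 0 with no filter and 0 under upper-quartile scaling. With fewer libraries the tests had fewer residual degrees of freedom, and beyond this the cause was not tested. The 4 ratios were computed again only with a pseudocount of 1 and with 1 library left out. None of them moved by more than 1 pooled SD of the 2 groups, which the induced libraries dominate. With 1 library left out, however, CDC20 to FZR1 ran from -0.21 to 0.06, UBE2S to UBE2C from -0.47 to 0.12, and FZR1 to the core subunits from -0.31 to -0.10.

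Whether the replicate numbers pair the libraries is not given by the labels. Deviations of libraries with the same number correlated at -0.003, 0.04 and 0.05, and those with different numbers at -0.07 to 0.03. With 3 libraries per group, these correlations cannot decide whether the libraries were paired. With the replicate block, 2310 genes were called, 0 of the members, 2 of the other subunits, 3 of the checkpoint list, 11 substrates and 1 modifier. In that fit HRAS had an adjusted p of 0.0526 and PLK1 of 0.0643 by limma.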
